A study of Mus musculus with 19 samples.

Results

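The genes of MHC class II antigen presentation were described in Kupffer cells (KCs), the resident macrophages of the liver. The list held 10 genes: H2-Aa, H2-Ab1, H2-Eb1, Cd74, Ciita, H2-DMa, H2-DMb1, H2-DMb2, H2-Oa and Ctss. A gene entered when a probeset carried its symbol alone, and the brightest such probeset was to be used. By this rule 8 of the 10 genes were measured, among 19938 genes in all. H2-DMb1 and H2-DMb2 share 1 probeset, so neither has a value here. Expression was measured on 19 arrays, 1 array per sample, in KCs sorted from livers of mice aged 6 to 12 weeks. The paper states that its mice had been backcrossed to C57Bl/6. Monocyte-derived KCs (mo-KCs) came from KC-DTR mice, which carry the human diphtheria toxin (DT) receptor at the Clec4f locus, 15 days (3 arrays) or 30 days (5 arrays) after 50 ng DT had emptied the KC niche. Embryonic KCs (em-KCs, 11 arrays) came from WT mice (3 arrays), untreated KC-DTR mice (3 arrays), and littermates without the receptor 15 days (2 arrays) or 30 days (2 arrays) after DT or without DT (1 array). All cells were sorted as Clec4F-positive KCs, so every profile is of cells that had passed this gate, and the Clec4f locus that is gated on also drives the receptor in KC-DTR mice. The labels call the samples biological replicates and do not say how many animals gave each. In bulk RNA a change in the share of cells that carry a transcript and a change in its level per cell cannot be told apart.

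MHC class II molecules are dimers of an alpha and a beta chain that carry peptides of ingested material to the cell surface, where CD4+ T cells read them. The invariant chain Cd74 fills the groove during assembly, cathepsin S (Ctss) cuts it down, H2-DM swaps its last fragment for peptide, and H2-O restrains H2-DM. Transcription of the class II alpha and beta chain genes depends on Ciita, a coactivator. Ciita is recruited to promoters by factors bound at conserved elements, the X and Y boxes.

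The promoters of 4 genes of this family are shown because they hold such elements and because the genes differ in what the arrays measured. H2-Aa and H2-Eb1, a class II alpha and a class II beta chain, were higher in mo-KCs, while H2-Oa and H2-Ob, the chains of H2-O, did not pass the test. H2-Ob is a gene of the same pathway and no member of the list of 10. The stretches run from 115 to 26 bases before the start site, 5′ to 3′ on the strand of the gene, in RefSeq's GRCm38.p6 (chr17:34287849-34287938, minus strand, for H2-Aa; chr17:34305752-34305841, plus strand, for H2-Eb1; chr17:34092264-34092353, plus strand, for H2-Oa; chr17:34238790-34238879, plus strand, for H2-Ob). Capitals mark matches to the Y box letters ATTGG on either strand and to the X box.
H2-Aa: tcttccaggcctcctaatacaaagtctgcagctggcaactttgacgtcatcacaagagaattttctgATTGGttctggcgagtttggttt
H2-Eb1: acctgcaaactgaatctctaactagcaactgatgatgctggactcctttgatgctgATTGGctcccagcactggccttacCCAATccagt
H2-Oa: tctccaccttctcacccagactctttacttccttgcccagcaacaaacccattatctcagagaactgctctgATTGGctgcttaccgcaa
H2-Ob: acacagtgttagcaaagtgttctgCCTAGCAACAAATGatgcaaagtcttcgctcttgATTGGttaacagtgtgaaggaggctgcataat

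The Y box lay 48 bases before the start site in H2-Aa, 59 bases before it in H2-Eb1 (with a second, reverse match at 35 bases), 43 bases in H2-Oa and 57 bases in H2-Ob. Promoter windows of 300 bases were at hand for 7 of the 10 listed genes (8 windows), and 6 of these 7 genes held ATTGG on either strand. So did 37.4% of all 32851 windows. The longer form TGATTGG, looked for after the sequences had been seen, was in 5 of the 7 genes and in 7.82% of all windows. The X box, searched on both strands as 1 strict pattern with some free positions, as capitalised in H2-Ob, was in 1 of the 7 genes, H2-DMb1, and in 0.195% of all windows, and H2-Ob held it too. Ctss held neither element in its window. The strict pattern misses near matches, so a window without it may still hold a variant of the X box. The H2-Eb1 stretch, for example, holds a run 1 letter off the pattern. These matches are descriptions of letters, and the Y box letters stood in H2-Oa and H2-Ob as in H2-Aa and H2-Eb1.

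Most class II genes were expressed more highly in mo-KCs than in em-KCs. Over both days 6 of the 8 measured genes rose: the 3 classical chain genes H2-Aa, H2-Ab1 and H2-Eb1, together with Cd74, Ciita and H2-DMa, by 1.23- to 1.78-fold. For comparison, 0.446% of all genes were called higher in that contrast. H2-Oa and Ctss did not pass. The median difference of the 8 genes was 0.34 on the log2 scale, against -0.01 over all genes. The test was limma's moderated test on the deposited log2 values, with p adjusted by Benjamini-Hochberg over all genes and a threshold of 0.05. Against the 3 untreated KC-DTR em-KC arrays alone, 1 of the 8 genes, H2-Eb1, was called. H2-Eb1 averaged 11.42 in those 3 arrays, against 12.25 at day 15 and 12.09 at day 30. A lost call against so few arrays is not by itself a lost difference. The share of all genes called in such alternative fits is not given here. Without day 15 replicate 3, 2 genes were called, and without day 15 replicate 2 or without day 30 replicate 4, 3 genes were.

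**Figure D1:**
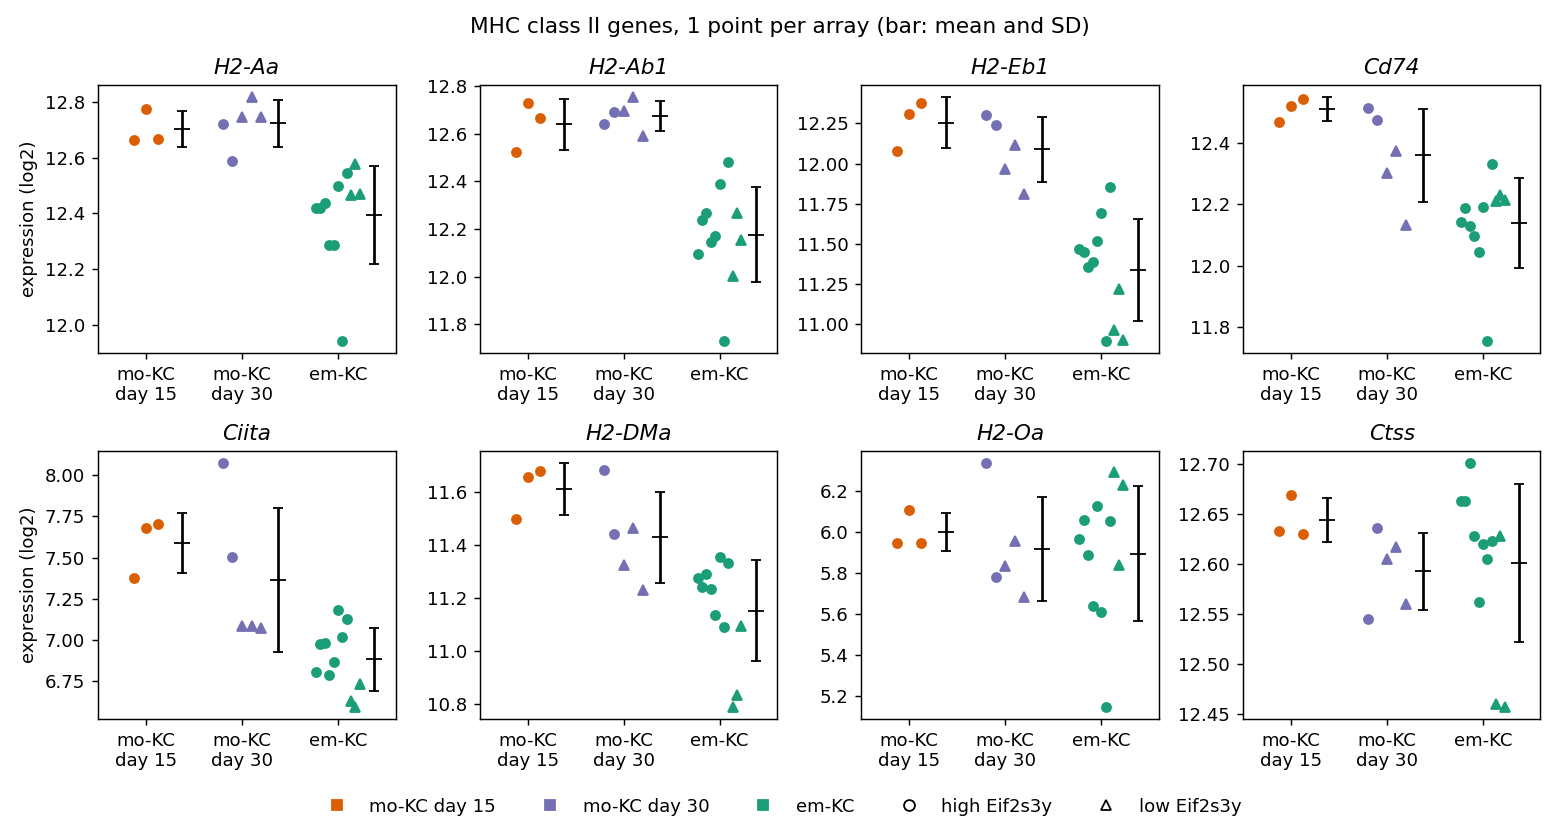
Log2 expression of the 8 measured genes, 1 point per array, in day 15 mo-KCs (3 arrays), day 30 mo-KCs (5 arrays) and em-KCs (11 arrays), with the mean and SD beside each group. Triangles are the 6 arrays with low Eif2s3y. For H2-Aa and H2-Ab1 all 8 mo-KC arrays lie above all 11 em-KC arrays.

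Among the chain genes, H2-Eb1, the beta chain of the I-E isotype, differed most. Its log2 levels were 12.08, 12.31 and 12.38 in the day 15 mo-KC arrays and 12.30, 12.24, 11.96, 12.12 and 11.81 in the day 30 mo-KC arrays, against a lowest, median and highest level of 10.90, 11.39 and 11.85 in em-KCs. All day 15 arrays and 4 of 5 day 30 arrays lay above every em-KC array. H2-Eb1 was 1.89-fold higher at day 15 (log2 difference 0.92, SE 0.17, limma adjusted p = 0.00585) and 1.68-fold higher at day 30 (log2 difference 0.75, SE 0.14, limma adjusted p = 0.00651). Over both days the log2 difference was 0.84 (limma adjusted p = 3.1e-04). H2-Eb1 passed in all 35 alternative fits run on it, with log2 differences from 0.70 to 1.11. H2-Ea, the gene of the I-E alpha chain, was dim in mo-KCs and em-KCs. H2-Ea averaged 4.52 at day 15, and day 30 differed from day 15 by 0.28. Its average was 4.83 in WT em-KCs and 4.67 in em-KCs of the KC-DTR colony. These averages were below the em-KC average of the T cell marker Cd3d (4.88). A dimer needs both chains and no protein was measured, so the H2-Eb1 difference is not read as more I-E dimer.

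H2-Ab1, the beta chain of I-A, had levels of 12.52, 12.73 and 12.67 at day 15 and of 12.64, 12.69, 12.70, 12.75 and 12.59 at day 30. In em-KCs its lowest, median and highest levels were 11.73, 12.17 and 12.48. The groups did not overlap. The log2 difference was 0.46 at day 15 (SE 0.11, limma adjusted p = 0.0611) and 0.50 at day 30 (SE 0.09, limma adjusted p = 0.00619), so that the call was made at day 30 and missed at day 15, while day 30 and day 15 differed by 0.03 (95% interval -0.22 to 0.29).

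H2-Aa, the alpha chain of I-A, had levels of 12.66, 12.78 and 12.67 at day 15 and of 12.72, 12.59, 12.74, 12.82 and 12.74 at day 30, against a lowest, median and highest level of 11.94, 12.44 and 12.58 in em-KCs. Here too no mo-KC array reached down to the em-KC range. The log2 difference was 0.31 at day 15 (limma adjusted p = 0.367) and 0.33 at day 30 (limma adjusted p = 0.0745), and 0.32 over both days (limma adjusted p = 0.0309). Of the 35 alternative fits run on it, 12 did not call it (limma adjusted p of up to 0.498), and 8 of these left out a single array: any of the 3 day 15 arrays, day 30 replicate 3, 4 or 5, the untreated littermate, or replicate 1 of the littermates 15 days after DT. H2-Aa and H2-Ab1 were among the 0.115% of all genes whose 8 mo-KC arrays all lay above the 11 em-KC arrays.

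Cd74, the invariant chain, had levels of 12.47, 12.52 and 12.54 at day 15 and of 12.51, 12.47, 12.30, 12.37 and 12.13 at day 30. The lowest, median and highest em-KC levels were 11.76, 12.19 and 12.33. All day 15 arrays and 3 of 5 day 30 arrays lay above the em-KC range. Over both days Cd74 was 1.23-fold higher (log2 difference 0.29, SE 0.07, limma adjusted p = 0.0426). Of the 35 alternative fits run on it, 16 did not call it, and its log2 difference stayed between 0.26 and 0.42. Leaving out any of the 3 day 15 arrays, day 30 replicate 1, 2, 3 or 4, any of the 3 KC-DTR em-KC arrays, the untreated littermate or either littermate array taken 15 days after DT was enough to lose the call.

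Ciita, the coactivator, had levels of 7.38, 7.68 and 7.70 at day 15 and of 8.08, 7.50, 7.08, 7.08 and 7.07 at day 30, against a lowest, median and highest level of 6.59, 6.87 and 7.18 in em-KCs. The day 15 arrays and the first 2 day 30 arrays lay above the em-KC range, and the other 3 day 30 arrays lay inside it. The log2 difference was 0.71 at day 15 (SE 0.17, limma adjusted p = 0.06), 0.48 at day 30 (SE 0.14, limma adjusted p = 0.119) and 0.59 over both days (SE 0.12, limma adjusted p = 0.0111). Of the 35 alternative fits run on it, 3 did not call it, among them the fit without day 15 replicate 3.

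H2-DMa, the alpha chain of the peptide exchanger, had levels of 11.50, 11.65 and 11.68 at day 15 and of 11.68, 11.44, 11.32, 11.46 and 11.23 at day 30, against a lowest, median and highest level of 10.79, 11.23 and 11.36 in em-KCs. The day 15 arrays and 3 of 5 day 30 arrays lay above the em-KC range. Over both days its log2 difference was 0.37 (SE 0.08, limma adjusted p = 0.029). Of the 35 alternative fits run on it, 9 did not call it (limma adjusted p of up to 0.632), among them those without day 15 replicate 2 or 3 and without day 30 replicate 1 or 4.

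H2-Oa and Ctss stayed close to em-KC levels. H2-Oa averaged 6.00 ± 0.09 (SD, n = 3) at day 15 and 5.92 ± 0.25 (SD, n = 5) at day 30, against 5.89 ± 0.33 (SD, n = 11) in em-KCs, and the groups overlapped. Ctss averaged 12.64 ± 0.02 (SD, n = 3) at day 15 and 12.59 ± 0.04 (SD, n = 5) at day 30, against 12.60 ± 0.08 (SD, n = 11) in em-KCs. Over both days the 95% interval of the log2 difference was -0.20 to 0.33 for H2-Oa and -0.09 to 0.12 for Ctss, each within 1.5-fold. H2-Oa was dim, near the em-KC averages of the T cell marker Cd3e (6.10) and the B cell marker Pax5 (6.07). At such levels a probeset may hold little signal, so the interval of H2-Oa does not show that its expression was unchanged.

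**Figure D2:**
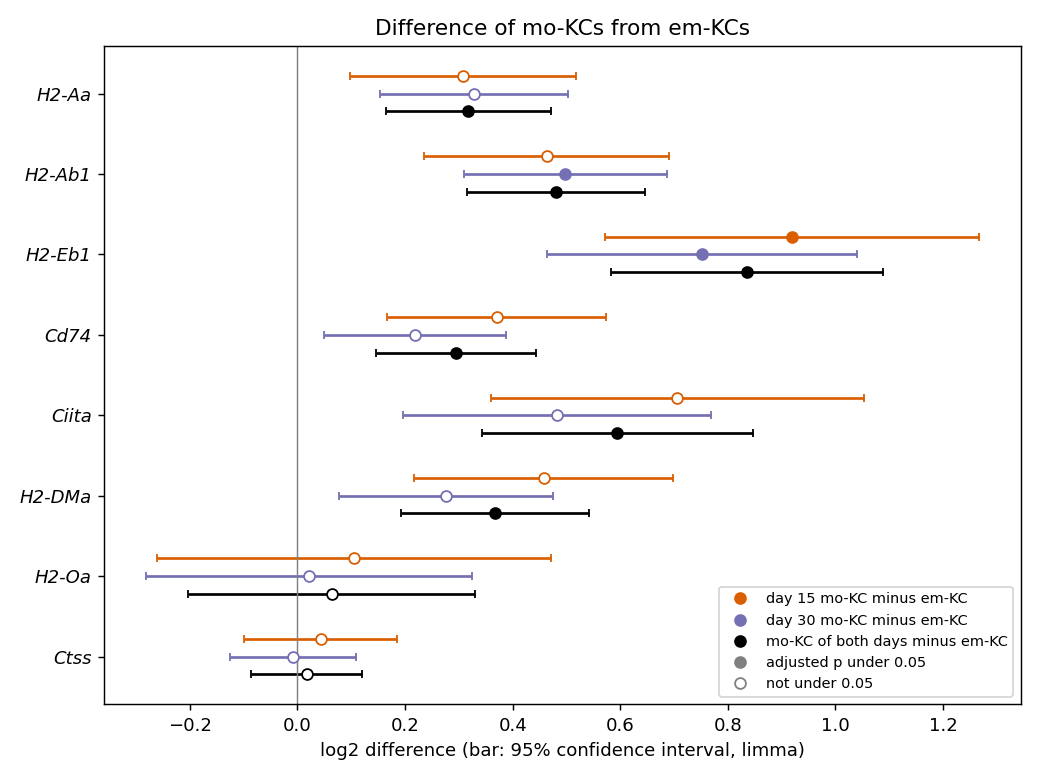
Log2 difference of mo-KCs from em-KCs for each gene at day 15, at day 30 and over both days, with limma's 95% confidence intervals. Filled points passed an adjusted p of 0.05. Over both days 6 of 8 points are filled, and the intervals of H2-Oa and Ctss span 0.

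Taken day by day, fewer genes passed, and against the 3 untreated KC-DTR em-KC arrays alone 0 of 8 passed at either day. At day 15 only H2-Eb1 was called higher, 1 of 8 genes, where 0.191% of all genes were. The groups did not overlap for 6 of the 8 genes, all but H2-Oa and Ctss, where 0.752% of all genes had every day 15 array above every em-KC array. At day 30, H2-Ab1 and H2-Eb1 were called, 2 of 8 genes, where 0.296% of all genes were, and the groups did not overlap for 2 of 8 genes, H2-Aa and H2-Ab1, where 0.176% of all genes did not. The day 15 count was 0 without day 15 replicate 2 or without replicate 3, and 2 without day 30 replicate 1 or without either littermate em-KC array taken 30 days after DT.

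No class II gene was called between the 2 days. In day 30 against day 15 mo-KCs, 0 of 8 genes passed (limma adjusted p of 0.92 or more, and 0 of 8 at an unadjusted p under 0.05), where 0.0201% of all genes were called. The log2 differences ran from -0.22 for Ciita to 0.03 for H2-Ab1. Eif2s3y, a gene of the Y chromosome, was high in all 3 day 15 arrays and low in 3 of the 5 day 30 arrays, and some signs turned with this set of arrays. Within the arrays with high Eif2s3y the log2 difference was 0.20 for Ciita, 0.0186 for H2-Eb1 and -0.0477 for H2-Aa, and with the set of arrays as a block it was 0.0498 for Ciita, 0.064 for H2-Eb1 and -0.0617 for H2-Aa. For 7 of the 8 genes the 95% interval over all arrays lay within 1.5-fold, and for Ciita it ran from -0.61 to 0.17.

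The day 30 group held both kinds of arrays that differ in Eif2s3y. Day 30 replicates 3 to 5 and the 3 WT em-KC arrays had low Eif2s3y (3.30 to 4.28) and high Xist (8.72 to 9.51), while the other 13 arrays had high Eif2s3y (7.53 to 8.06) and low Xist (4.07 to 4.53). Sex is not given per sample in the labels. Within the 13 high arrays the day 30 log2 difference was 0.82 for Ciita (limma adjusted p = 0.0127), the 1 gene called there, and 0.82 for H2-Eb1 (limma adjusted p = 0.0554). Within the 6 low arrays it was 0.94 for H2-Eb1 (limma adjusted p = 0.0132), the 1 gene called there, 0.43 for Ciita (limma adjusted p = 0.0737) and 0.05 for Cd74 (limma adjusted p = 0.843). A fit that blocked on the set called 4 of the genes at day 30, namely H2-Ab1, H2-Eb1, Ciita and H2-DMa. The share of all genes called in that fit or within either set is not given here. H2-Oa lay on different sides of 0 in the sets, at 0.25 in the high arrays and at -0.30 in the low arrays, and passed in neither.

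**Figure D3:**
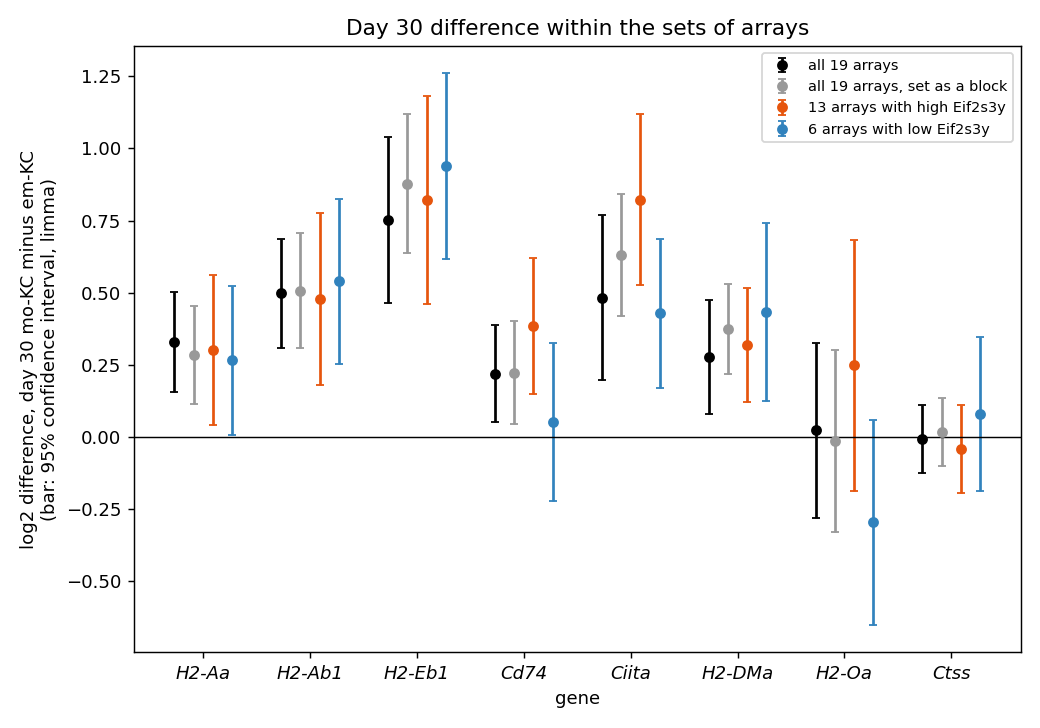
Log2 difference of day 30 mo-KCs from em-KCs over all 19 arrays, with the set of arrays as a block, and within the arrays with high or low Eif2s3y, with limma's 95% confidence intervals. H2-Eb1 lies between 0.75 and 0.94 in all 4 fits, and H2-Oa changes sign.

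Between WT em-KCs and em-KCs of the KC-DTR colony 1 of the 8 genes, H2-DMa, was called, where 16.5% of all genes were called, so that the count says nothing particular about class II genes. H2-DMa levels were 10.79, 10.83 and 11.09 in WT em-KCs, against a lowest, median and highest level of 11.09, 11.26 and 11.36 in colony em-KCs. The groups overlapped at 1 array, WT replicate 3, and the other WT arrays lay below every colony array. The log2 difference, with the 4 colony conditions weighted equally, was -0.33 (SE 0.11, limma adjusted p = 0.0382). H2-Eb1 averaged 11.03 ± 0.17 (SD, n = 3) in WT em-KCs and 11.45 ± 0.28 (SD, n = 8) in colony em-KCs (log2 difference -0.42, limma adjusted p = 0.0762). The WT arrays all belong to the low Eif2s3y set and the colony em-KC arrays all to the high set, so genotype source and set cannot be told apart. Of 15 measured hepatocyte markers, 13 were higher in WT em-KCs, and with their mean as a covariate the H2-DMa difference was -0.14 (limma adjusted p = 0.806). The call was also lost after cyclic loess, with array weights, without WT replicate 1 or 2, without KC-DTR replicate 1 or 3, and without littermate replicate 2 of either day after DT.

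The receptor and DT were each compared among em-KCs, and neither contrast called a gene of any kind. Untreated KC-DTR em-KCs against littermate em-KCs gave 0 of 8 genes called, where 0% of all genes were, and littermates after DT against the untreated littermate, 1 array, gave 0 of 8, where 0% were (limma adjusted p of 1 throughout, and 0 of 8 at an unadjusted p under 0.05 in either contrast). With 1 untreated littermate array and no call among all genes, the DT contrast does not show that DT left these genes as they were, and its intervals for 3 of the 8 genes reached beyond 1.5-fold. In KC-DTR against littermate em-KCs the interval of H2-Oa did so too (log2 difference 0.27, 95% interval -0.13 to 0.66), and for Ctss all 3 KC-DTR arrays lay above the 5 littermate arrays (log2 difference 0.0647, limma adjusted p = 1).

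**Figure D4:**
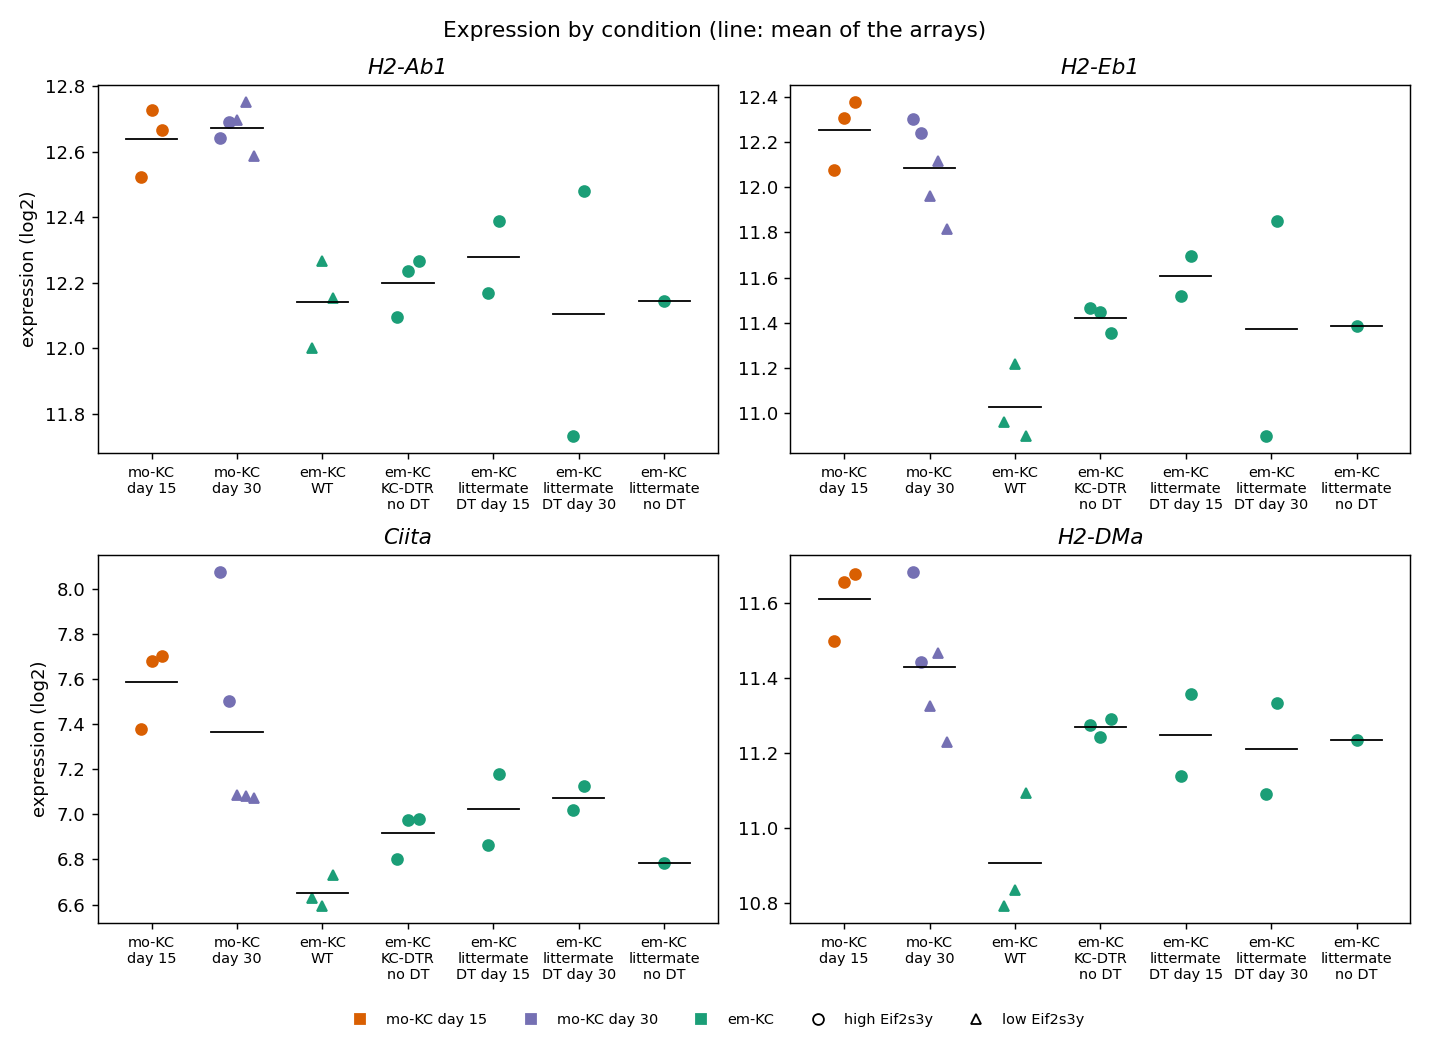
Log2 expression of H2-Ab1, H2-Eb1, Ciita and H2-DMa on each array by condition, with a line at the mean. WT em-KCs average 11.03 for H2-Eb1, against 11.42 in untreated KC-DTR em-KCs, and the littermate arrays taken 30 days after DT lie apart at 10.90 and 11.85.

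H2-Aa, H2-Ab1, H2-Eb1 and Cd74 moved together over all 19 arrays, and some pairs did so only loosely among em-KCs alone. Their mean was between 12.43 and 12.58 at day 15 and between 12.32 and 12.54 at day 30, whereas em-KC arrays had means between 11.58 and 12.30, so each mo-KC array lay above each em-KC array. Pearson correlations between pairs of these genes were 0.74 to 0.916 over all 19 arrays and 0.383 to 0.965 over the 11 em-KC arrays, as a description, since arrays of a group share their condition and the values share 1 normalization. Spearman correlations were 0.746 to 0.898 and 0.145 to 0.918. Over the em-KC arrays H2-Eb1 had a Spearman correlation of 0.145 with Cd74 and 0.209 with H2-Aa. The values over all 19 arrays also hold the difference between mo-KCs and em-KCs. Outside the 10 genes, the genes whose level over the 19 arrays was most like this mean were Fxyd5 (Pearson 0.903), Tspan32 (0.882), Capg (0.866), Cd207 (0.86) and Ccr3 (0.831). Fxyd5 averaged 11.98 at day 15 and 11.90 at day 30, against 11.45 in em-KCs, and Cd207, the lectin langerin, averaged 11.63 at day 15 and 11.87 at day 30, against 10.42 in em-KCs.

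Both ends of the em-KC range came from the same condition. Littermates 30 days after DT had the lowest mean, 11.58 in replicate 1, and the highest, 12.30 in replicate 2. B cells and dendritic cells carry much class II, and B cell transcripts differed the same way: Ms4a1 was 5.23 and 5.94, Cd79a 6.07 and 7.49 and Fcer2a 5.22 and 6.52 in replicates 1 and 2, and the mean of 11 B cell markers was 6.21 and 6.89, the lowest and highest of em-KCs. The mean of 12 dendritic cell markers had its em-KC extremes, 6.06 and 6.30, in these 2 arrays too. The part of either cell type in this spread was not tested. In the mo-KCs this B cell mean was 6.11 to 6.50 at day 15 and 6.03 to 6.39 at day 30, against 6.21 to 6.89 in em-KCs. Of the 11 markers 0 were called higher and 1, Cd22, was called lower. Cd79b went the other way, with averages of 9.51 at day 15 and 9.46 at day 30, against 9.36 in em-KCs. The mean of 12 dendritic cell markers was 6.16 to 6.29 at day 15 and 6.00 to 6.25 at day 30, against 6.06 to 6.30 in em-KCs, with 0 of 12 called in either direction. One of the 12, Itgax, the integrin CD11c, was 6.12, 5.97 and 6.08 in the day 15 mo-KC arrays, against at most 5.91 in em-KCs (log2 difference 0.78, limma adjusted p = 0.0533), and averaged 5.27 at day 30, against 5.27 in em-KCs. Its part in the day 15 class II levels was not tested. With the B cell mean as a covariate 5 genes were called at day 15 and 5 over both days, and with the dendritic cell mean 1 and 6 genes were. The shares of all genes called in these covariate fits are not given here, so the counts are not read as results about class II genes.

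**Figure D5:**
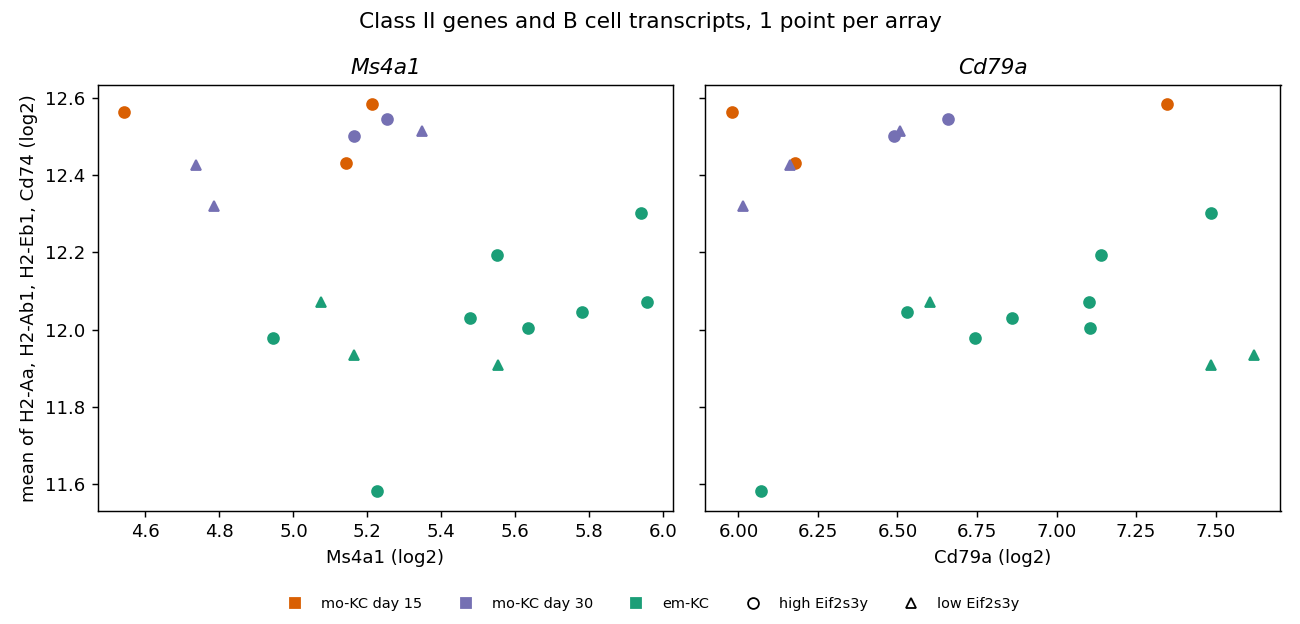
Mean log2 level of H2-Aa, H2-Ab1, H2-Eb1 and Cd74 on each array against Ms4a1 and Cd79a, transcripts of B cells. The mo-KC arrays, at 12.32 to 12.58, lie above the em-KC arrays, at 11.58 to 12.30. Ms4a1 runs up to 5.35 in mo-KC arrays and up to 5.96 in em-KC arrays. Cd79a runs up to 7.35 in mo-KC arrays, in day 15 replicate 2, and up to 7.62 in em-KC arrays. Day 15 replicate 2 also has the highest class II mean, 12.58.

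Some monocyte markers were also higher in mo-KCs. The mean of 9 markers was 8.44 to 8.61 at day 15 and 8.07 to 8.20 at day 30, against 7.72 to 8.16 in em-KCs. Over both days 3 of 9 were called higher, Ccr2, Cx3cr1 and Ms4a4c, where 0.446% of all genes were, and 0 of 9 lower. S100a4 averaged 6.23 at day 15 and 6.35 at day 30, against 6.89 in em-KCs. Ccr2 was called lower at day 30 than at day 15, with averages of 6.19 and 8.48, against 5.58 in em-KCs. Cx3cr1, the fractalkine receptor, was 5.38-fold higher at day 15 and 2.23-fold higher at day 30. The part of this difference in the class II levels was not tested. The KC marker Clec4f averaged 12.18 at day 15 and 11.25 at day 30, against 12.51 in em-KCs, and Timd4 averaged 8.16 at day 15 and 9.62 at day 30, against 11.90 in em-KCs. Of 16 measured KC markers, 4 were called lower over both days (Clec4f, Timd4, Marco and Cd163) and 0 higher. The median log2 difference of the 16 was -0.13, against -0.01 over all genes. Id3 went the other way, at 11.27 on day 15 and 11.18 on day 30, against 11.06 in em-KCs.

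Of 22 further measured genes of the class II pathway 0 were called higher over both days, where 0.446% of all genes were, and 1, Ctsd, was called lower. At that share a list of 22 genes would hold few or no calls. Ctsd, a lysosomal protease, averaged 12.39 at day 15 and 12.34 at day 30, against 12.69 in em-KCs (log2 difference over both days -0.32, limma adjusted p = 0.00707). H2-Ob averaged 6.77 at day 15 and 6.66 at day 30, against 6.51 in em-KCs (limma adjusted p over both days 0.579). Of 17 regulators of class II genes, which include factors that bind the X and Y boxes, 0 were called over both days, and Rfx5, a subunit of the X box factor, averaged 6.45 at day 15 and 6.36 at day 30, against 6.37 in em-KCs.

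Neighbouring systems were counted against the same shares of all genes, 0.446% called higher over both days and 0.296% at day 30, at which lists of this size hold few or no calls, so that their counts say nothing particular about them. Of 16 genes of interferon-gamma signalling, the pathway known to induce Ciita, 0 were called at either day or over both days. Of 15 genes of co-stimulation and its inhibition, 0 were called likewise. Of 16 genes of class I presentation 0 were called over both days and 1 was called at day 30, Psmb8, an immunoproteasome subunit. Psmb8 averaged 10.56 in day 30 mo-KCs and 10.25 in em-KCs (log2 difference 0.31, limma adjusted p = 0.0379). Median log2 differences at day 15 were 0.18 for interferon-gamma signalling, 0.14 for class I and 0.10 for co-stimulation, against -0.01 over all genes. At day 30 they were -0.05, 0.03 and 0.01, against -0.02. Over both days they were 0.07, 0.12 and 0.02, against -0.01.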

How the data were processed

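Arrays were Affymetrix GeneChip Mouse Gene 1.0 ST. The authors deposited a log2 value for every probeset, from Robust Multi-array Average (background correction, summarization and quantile normalization between arrays). Neither the software version nor array batches were given in the sources used here. Values ran from 1.71 to 14.4. Quantile normalization gives every array 1 distribution, so changes shared by most genes cannot be seen. Of 35556 probesets, 21789 had 1 gene symbol in the platform annotation, 1621 had several and 12146 had none. The brightest probeset by mean represented a gene, as in the study's methods. No 2 of the 19 arrays were identical. Groups followed the labels. Group comparisons used limma 3.58.1 in R 4.3.3 (lmFit, eBayes, two-sided, Benjamini-Hochberg over 19938 genes, threshold 0.05), with 3 groups for mo-KCs against em-KCs and 7 conditions for comparisons among em-KCs. Overlap was judged over arrays. The code was tested on simulated data. Genes named were the 10 listed genes, called genes of the lists, the 5 genes most like the mean of 4 class II genes, and array checks. Markers, H2-Ob, Rfx5 and other uncalled genes named were chosen after values were seen. Listed genes and gene lists were chosen with earlier results of these data known. The number of arrays limits the precision.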

Additional observations from a re-analysis of the deposited data

Results flagged for a closer look

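Among 8 colony em-KC arrays (KC-DTR mice and littermates), H2-Aa was 11.94 in replicate 1 of the littermates 30 days after DT, with the nearest array at 12.29, so that the gap took up 0.572 of the range of the group. This was the 1 such array in 40 sets of a gene and a group looked at, where chance alone flags about 1 in 20, so that no more sets stood out than chance gives. The labelled conditions alone had given 0 such arrays, and the pooled groups, which include this one, were added after that was seen.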

How the results depend on the processing

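The number of class II genes called changed with the processing and with the arrays used, and so did the size of some differences. At day 30 the log2 difference from em-KCs ran from 0.05 to 0.38 for Cd74 and from 0.38 to 0.82 for Ciita. These ranges are over the alternatives other than leaving out 1 array. Of 1960 values of single genes under alternatives, 87 changed sign, and 0 of these were called in either fit; the size of the value before the change was at most 0.299. The comparisons of KC-DTR with littermate em-KCs and of DT with no DT were run under the alternatives after seeing the data. For day 15 mo-KCs minus em-KCs, with 1 gene called, the count was 0 against untreated KC-DTR em-KCs alone, 3 with the set of arrays as a block, 3 in the 13 arrays with high Eif2s3y, 4 after cyclic loess, 2 with arrays centred on their median, 2 with a robust trended eBayes, 5 with array weights, 2 with the replicate number as a block, 2 with liver endothelial markers as a covariate, 5 with B cell markers as a covariate and 4 at an adjusted p of 0.1. For day 30 mo-KCs minus em-KCs, with 2 genes called, the count was 0 against untreated KC-DTR em-KCs alone, 4 with the set of arrays as a block, 1 in the 13 arrays with high Eif2s3y, 1 in the 6 arrays with low Eif2s3y and 1 by the methods' t-test. For mo-KCs of both days minus em-KCs, with 6 genes called, the count was 1 against untreated KC-DTR em-KCs alone and 2 at an adjusted p of 0.01. For WT minus colony em-KCs, with 1 gene called, the count was 0 after cyclic loess, 0 with array weights, 2 by the methods' t-test, 0 with hepatocyte markers as a covariate, 2 with dendritic cell markers as a covariate, 0 at an adjusted p of 0.01 and 2 at an adjusted p of 0.1. The cause was not tested, and the share of all genes called in each of these fits is not given here. Leaving out 1 array at a time, the counts ranged from 0 to 2 (day 15), from 2 to 6 (both days) and from 0 to 2 (WT em-KCs), and from 2 to 3 (day 30). Between the days, the count was 0 in every alternative run. Same-numbered arrays of day 15 and day 30 did not deviate together from their group means (correlations 0.0345, -0.124 and 0.0436). The day 30 mean pooled arrays with high and low Eif2s3y, so these correlations cannot show whether such arrays share more than a number. Blocking on the replicate number gave 2 called genes at day 15, 2 at day 30, 4 over both days and 1 in WT em-KCs. WT em-KCs could not be compared within a set of arrays or with the set as a block, day 15 could not within the low arrays, and comparisons among em-KCs gave no value without the untreated littermate. Groups of 3 and 5 mo-KC arrays limit what can be called. Against em-KCs of the KC-DTR colony alone, the sign turned for Ctss at -0.0147 (mo-KCs of both days minus em-KCs). Against untreated KC-DTR em-KCs alone, the sign turned for Ctss at -0.0317 (day 15 mo-KCs minus em-KCs), H2-Oa at -0.0525 (day 30 mo-KCs minus em-KCs) and H2-Oa at -0.0109 and Ctss at -0.0573 (mo-KCs of both days minus em-KCs). With the set of arrays as a block, the sign turned for H2-Oa at -0.0163 and Ctss at 0.0163 (day 30 mo-KCs minus em-KCs) and H2-Aa at -0.0617, H2-Eb1 at 0.064 and Ciita at 0.0498 (day 30 minus day 15 mo-KCs). In the 13 arrays with high Eif2s3y, the sign turned for Ctss at -0.0157 (mo-KCs of both days minus em-KCs) and H2-Aa at -0.0477, H2-Eb1 at 0.0186, Ciita at 0.20 and H2-Oa at 0.0579 (day 30 minus day 15 mo-KCs). In the 6 arrays with low Eif2s3y, the sign turned for H2-Oa at -0.30 and Ctss at 0.0788 (day 30 mo-KCs minus em-KCs). After cyclic loess, the sign turned for H2-Ab1 at 0.017 (WT minus colony em-KCs) and Cd74 at 0.0214, H2-DMa at 0.0303 and Ctss at 0.0116 (littermates with DT minus without). With arrays centred on their median, the sign turned for Ctss at 0.0124 (day 30 mo-KCs minus em-KCs) and Cd74 at 0.00439 and H2-DMa at 0.0152 (littermates with DT minus without). With array weights, the sign turned for Ctss at -0.00173 (mo-KCs of both days minus em-KCs). With the replicate number as a block, the sign turned for H2-Aa at -0.0178 (day 30 minus day 15 mo-KCs), H2-Ab1 at -0.0379 (KC-DTR minus littermate em-KCs) and H2-Aa at -0.044, H2-Ab1 at -0.0881 and H2-Eb1 at -0.0246 (littermates with DT minus without). With hepatocyte markers as a covariate, the sign turned for Ctss at -0.00125 (day 15 mo-KCs minus em-KCs), Ctss at -0.0171 (mo-KCs of both days minus em-KCs), H2-Aa at -0.0135 (day 30 minus day 15 mo-KCs), Ciita at 0.37 (WT minus colony em-KCs) and H2-Aa at -0.0193, Cd74 at 0.0684 and H2-DMa at 0.0611 (littermates with DT minus without). With liver endothelial markers as a covariate, the sign turned for H2-Aa at -0.0209 (day 30 minus day 15 mo-KCs), Ciita at 0.0138 (KC-DTR minus littermate em-KCs) and H2-Aa at -0.00508, Cd74 at 0.0555 and H2-DMa at 0.0375 (littermates with DT minus without). With dendritic cell markers as a covariate, the sign turned for H2-Oa at 0.15 (day 30 minus day 15 mo-KCs), H2-Eb1 at 0.10 and Ciita at 0.12 (KC-DTR minus littermate em-KCs) and H2-Aa at -0.0687, H2-Ab1 at -0.0574, H2-Eb1 at -0.11, H2-Oa at -0.27 and Ctss at 0.00462 (littermates with DT minus without). With B cell markers as a covariate, the sign turned for H2-Ab1 at 0.0187 (WT minus colony em-KCs) and H2-Aa at -0.0637, H2-Ab1 at -0.0947, H2-Eb1 at -0.11 and H2-Oa at -0.18 (littermates with DT minus without). Leaving out 1 array at a time, the log2 difference also turned sign for some genes and ranged over -0.0225 to 0.0037 for Ctss and -0.083 to 0.0808 for H2-Oa (day 30 mo-KCs minus em-KCs), -0.0113 to 0.10 for H2-Oa (mo-KCs of both days minus em-KCs), -0.0236 to 0.0797 for H2-Ab1 and -0.00267 to 0.0573 for H2-Aa (day 30 minus day 15 mo-KCs), -0.14 to 0.0514 for H2-Ab1 (WT minus colony em-KCs), -0.093 to 0.0171 for Ciita, -0.10 to 0.15 for H2-Ab1, -0.19 to 0.13 for H2-Eb1, -0.028 to 0.16 for Cd74 and -0.00234 to 0.0783 for H2-DMa (KC-DTR minus littermate em-KCs), -0.16 to 0.13 for Cd74, -0.0653 to 0.0555 for H2-DMa, -0.13 to 0.32 for H2-Oa, -0.12 to 0.18 for H2-Aa, -0.14 to 0.24 for H2-Ab1 and -0.14 to 0.34 for H2-Eb1 (littermates with DT minus without).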
